A study of Homo sapiens with 6 samples.

Results

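Megabase loops, the DNA contacts that join regions 1 to 2 Mb apart on one chromosome, were examined in HiChIP data of the G401 cell line, a human rhabdoid tumour line that lacks SMARCB1. They were chosen as all listed loops whose anchor midpoints lie at least 1000 kb apart, whatever their number of paired-end tags (PETs); the 6 libraries listed 116148 of them among 736589 loops. HiChIP couples chromosome conformation capture to immunoprecipitation, so a PET is a sequenced read pair that joins a pair of regions, called anchors, in DNA pulled down with the antibody. The libraries came from a stable line in which doxycycline switches SMARCB1 on again. H3K27ac, a mark of active enhancers and promoters, was profiled at day 0 without doxycycline (genotype given as SMARCB1 -/-) and at day 3 of doxycycline at 1 μg/ml (genotype given as SMARCB1 +/+). ARID1A, a DNA-binding subunit of the SWI/SNF remodelling complex, was profiled only at day 3 under the same treatment. Each of these 3 groups had 2 libraries. SMARCB1, doxycycline and time changed together between the days and cannot be told apart. Whether replicates came from separate cultures is not in the labels, and p-values therefore measure only the spread between libraries, which may be technical.

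Contacts fall steeply with genomic distance because chromatin is a flexible polymer, and most enhancers act on promoters within the same topological domain, well below a megabase. Contacts at a megabase and beyond are known from a few settings: developmental genes with very distant enhancers, gene clusters that gather in one nuclear body, such as the replication histone genes in the histone locus body, and large active domains that meet across inactive chromatin. SMARCB1 and ARID1A are both subunits of SWI/SNF, which opens chromatin at enhancers. Regions are named here by hg19 chromosome band, and a gene is mentioned only as a known resident of its band. No hg19 gene annotation was used, so whether an anchor covers that gene was not examined, and no sequence is printed.

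The libraries differed in depth and in their anchor lists. The files hold 253502 to 301703 PETs per library for H3K27ac at day 0, 929128 to 982141 for H3K27ac at day 3 and 435210 to 467487 for ARID1A, on 8558 to 8594, 17363 to 17377 and 26283 to 26350 anchors. Anchor lists were nearly the same within a group and differed between groups, so contacts of a region were measured only in groups that had an anchor on it. Counts of listed loops per library are therefore also given below as the number expected when every library is thinned to 253502 listed PETs. This equalises the PET total only: anchors and possible pairs stay more numerous at day 3 and in ARID1A, so the same total is spread over more pairs there.

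More megabase loops were listed for H3K27ac at day 3 than in the other groups. Day 0 H3K27ac libraries held 8170 and 7421, day 3 H3K27ac libraries 34383 and 34113, and ARID1A libraries 15358 and 16703. They made up 17.2% ± 0.479 of all listed loops at day 0, 21.1% ± 0.132 at day 3 and 9.96% ± 0.308 for ARID1A (SD, n = 2 each). The groups did not overlap in number or in share. At equal PET totals the expected numbers were 7284 ± 193, 11991 ± 492 and 9387 ± 120, so the ratio of day 3 to day 0 was 4.39 as listed and 1.65 at equal PET totals. The share changed order: thinned libraries had 16.6% ± 0.266 at day 0, 14.1% ± 0.395 at day 3 and 8.22% ± 0.103 for ARID1A.

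Megabase loops held few PETs each and a small part of all contacts. Their PETs were 4.23% and 4.41% of the library at day 0, 5.98% and 5.61% for H3K27ac at day 3, and 3.93% and 3.99% for ARID1A. Thinning the listed PETs leaves this share unchanged by construction, and whether depth alters it through anchor calling was not tested. The share was higher at day 3 than at day 0 in both libraries. Restricted to consensus loops whose anchors were called in all 3 groups, a set chosen after the data were seen, it was 4.98% ± 0.168 at day 0, 5.51% ± 0.257 at day 3 and 3.21% ± 0.0215 for ARID1A (SD, n = 2). A megabase H3K27ac loop averaged 1.51 to 1.62 PETs and an ARID1A one 1.11 and 1.12. Shorter loops averaged 6.61 to 7.50 and 2.94 to 3.05. Loops with a single PET were 75.7% and 77.2% of megabase loops at day 0, 70.8% and 71.2% at day 3, and 91.2% and 90.9% for ARID1A. Loops just inside the 1000 kb limit resembled those just outside: in the 50 kb on each side, H3K27ac day 3 replicate 1 had 1.89 and 1.87 PETs per loop.

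Loops with 4 or more PETs, the stronger members, numbered 357 and 283 at day 0, 2045 and 2026 at day 3, and 78 and 87 for ARID1A. They were 4.37% and 3.81% of the megabase loops at day 0 (95% Wilson intervals 3.95 to 4.83 and 3.40 to 4.27), 5.95% and 5.94% at day 3 (5.70 to 6.20 and 5.69 to 6.19), and 0.508% and 0.521% for ARID1A (0.407 to 0.633 and 0.422 to 0.642). The intervals cover counting error only. They held 20.6% to 24.1% of megabase PETs in the H3K27ac libraries and 2.13% to 2.18% in ARID1A. At equal PET totals their expected number was 278 ± 7.18 at day 0, 182 ± 13.0 at day 3 and 17.4 ± 3.23 for ARID1A (SD, n = 2). The order of the 2 H3K27ac groups was thus the opposite of the listed one, while ARID1A remained lowest. The highest PET count of any megabase loop was 104 for H3K27ac and 12 for ARID1A.

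**Figure D1:**
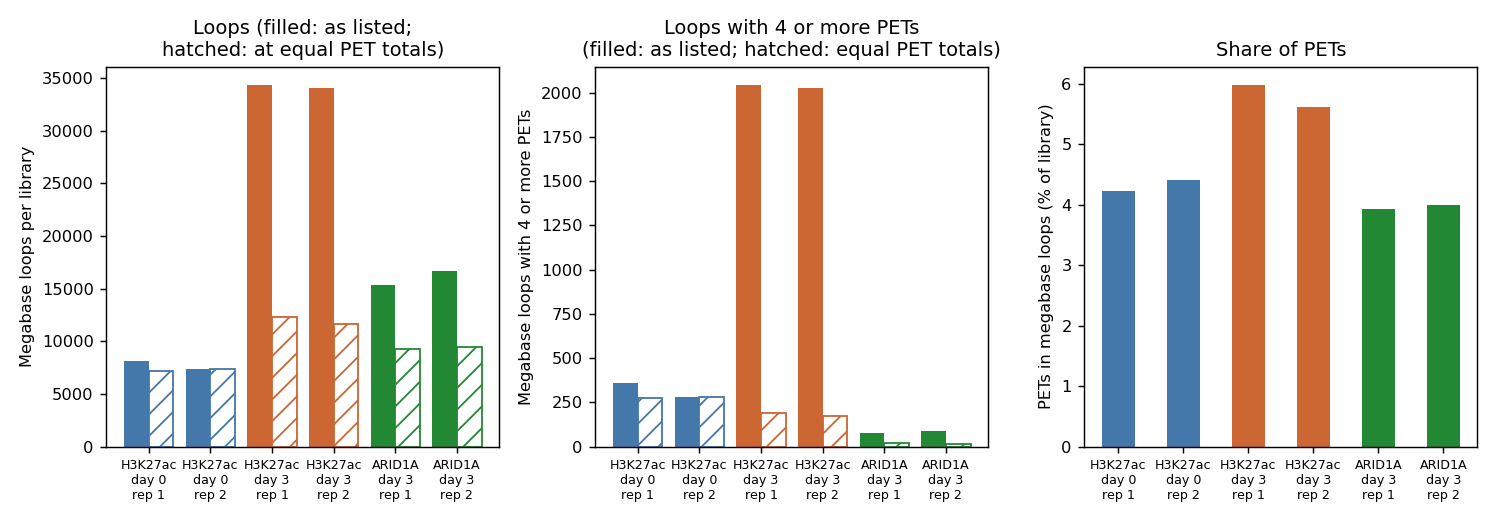
Megabase loops per library (left), those with 4 or more PETs (middle) and the percentage of the library's PETs that they hold (right), with 1 bar or pair of bars per library. Filled bars are the values as listed and hatched bars the values expected at 253502 PETs; the day 3 H3K27ac libraries list the most loops in both left-hand panels, and at equal PET totals the day 0 libraries have more loops with 4 or more PETs (273 and 283 against 191 and 172).

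Set against the number of anchor pairs that could have formed a megabase loop, ARID1A contacts were the sparsest. Of the possible pairs at 1 to 2 Mb, 19.4% and 17.7% of 42174 and 42008 were listed at day 0, 22.7% and 22.5% at day 3, where there were 151421 and 151469 pairs, and 4.45% and 4.81% for ARID1A, where there were 345436 and 347152. PETs per 1000 possible pairs were 302 and 266 at day 0, 367 and 364 at day 3 and 49.5 and 53.7 for ARID1A. At equal PET totals the listed share was 17.3% ± 0.507, 7.92% ± 0.327 and 2.71% ± 0.0252, so day 3 H3K27ac was above day 0 as listed and below it after thinning. Since one PET total is divided over more possible pairs at day 3, thinning lowers this share there by construction.

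Within the range of 1 to 2 Mb the contacts went on falling with distance. PETs per possible pair at 1.0 to 1.2 Mb exceeded those at 1.8 to 2.0 Mb 1.78 ± 0.0459-fold at day 0, 1.92 ± 0.0134-fold at day 3 and 2.18 ± 0.0239-fold for ARID1A. From 100 to 200 kb up to 1.0 to 1.2 Mb the fall was 14.6 ± 0.210-fold, 11.9 ± 0.665-fold and 16.8 ± 0.0670-fold (SD, n = 2). H3K27ac at day 3 thus had the shallowest fall up to a megabase, and ARID1A the steepest over both ranges. Median spans of the megabase loops were 1407 and 1411 kb in the day 0 libraries. They were 1407 and 1400.0 kb in day 3 H3K27ac, and 1363 and 1369 kb in ARID1A. Loops with 4 or more PETs were 2.10 ± 0.165 times as many at 1.0 to 1.2 Mb as at 1.8 to 2.0 Mb at day 0, against 3.37 ± 0.00367 at day 3. In the day 0 libraries the strong loops did not fall evenly: the replicates had 56 and 39 of them at 1400 to 1600 kb and 65 and 53 at 1600 to 1800 kb.

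**Figure D2:**
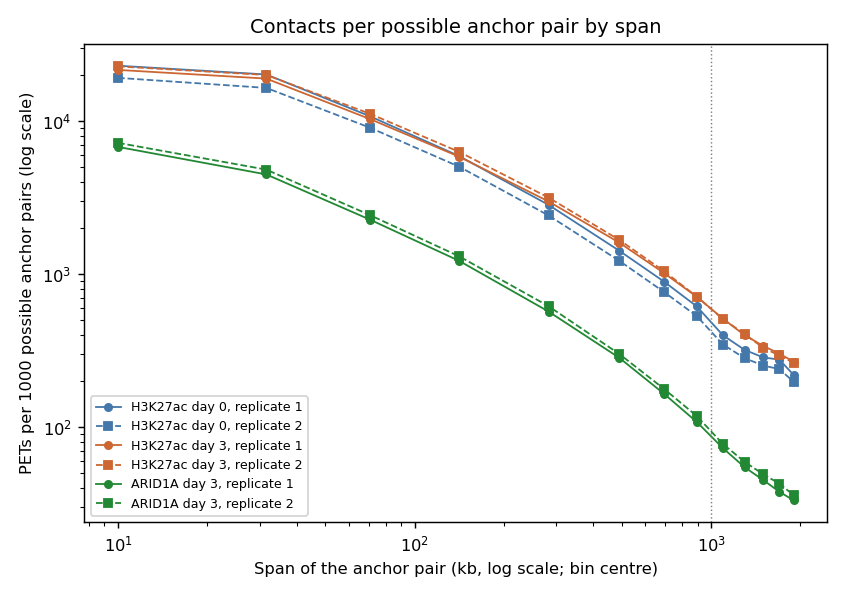
PETs per 1000 possible anchor pairs (log scale) against the span of the pair in kb (log scale, bin centre), 1 line per library; the dotted line marks 1000 kb. The ARID1A lines lie below the H3K27ac lines at every span and end at 33.2 and 35.9 PETs in the bin of 1800 to 2000 kb, against 198 to 268 in the H3K27ac libraries.

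The 6 measures per library (number, share of loops, share of PETs, loops with 4 or more PETs, share of possible pairs, share listed in both replicates) were compared for day 3 against day 0 and for ARID1A against H3K27ac at day 3. In none of the 12 comparisons did the groups overlap, and the exact two-sided permutation test gave p = 0.333 in each, with 0.333 after Benjamini-Hochberg adjustment. That is the smallest p that 2 libraries against 2 can give, so none passes a threshold of 0.05.

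A smaller share of megabase loops than of shorter ones was listed in both replicates, in 6 of 6 libraries and at each PET count below 10; this was not tested across loops, which are not independent. Replicates listed 2809 megabase loops in common at day 0, 14600 at day 3 and 2352 for ARID1A. These were 34.4% and 37.9% of each library's megabase loops at day 0, 42.5% and 42.8% at day 3, and 15.3% and 14.1% for ARID1A. Among shorter loops the shares were 75.5% and 79.3%, 78.0% and 77.7%, and 61.2% and 59.0%. Among loops with a single PET, 27.6% and 30.8% of megabase loops were found in the other replicate at day 0, against 50.6% and 58.1% of shorter ones. The corresponding values were 33.7% and 33.9% against 55.7% and 55.0% at day 3, and 13.0% and 11.7% against 42.8% and 39.9% for ARID1A.

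Most strong megabase loops were listed in both replicates. Of those with 4 or more PETs, the other replicate listed 86.6% and 92.9% at day 0, 90.7% and 90.1% at day 3, and 84.6% and 79.3% for ARID1A. Every megabase loop with 10 or more PETs was listed in the other replicate, which covers 64 and 50 loops at day 0, 226 and 225 at day 3 and 1 in each ARID1A library. A count of 4 or more in both replicates was reached by 159 loops at day 0, 963 at day 3 and 17 for ARID1A. Across loops listed in both replicates, the Spearman correlation of their PET counts was 0.42 in both H3K27ac groups and 0.27 for ARID1A; loops share anchors and are not independent. The shares listed in both replicates were 34.6% ± 0.917 at day 0, 22.6% ± 0.927 at day 3 and 10.1% ± 0.129 for ARID1A at equal PET totals, an order of the H3K27ac groups opposite to the listed one.

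**Figure D3:**
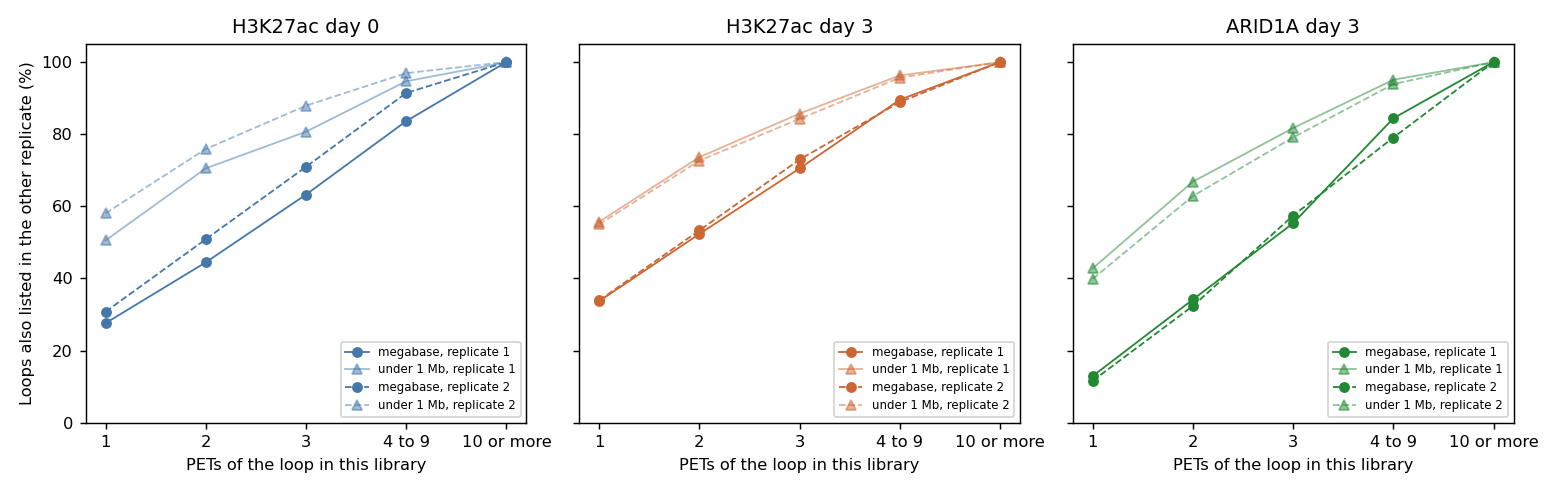
Percentage of loops also listed in the other replicate (vertical axis) by the PET count of the loop in its own library (horizontal axis), for megabase loops (circles) and loops under 1 Mb (triangles), 1 panel per group and 1 line per library. The megabase lines start lower, at 27.6% and 30.8% for single-PET loops at day 0, and all lines meet near 100% at 10 or more PETs.

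The number of megabase loops on a chromosome followed the number of possible anchor pairs there, with Spearman correlations over 23 chromosomes of 0.85 to 0.97 in the 6 libraries; the points of a library share its depth and anchor list. The listed share of possible pairs differed between chromosomes. For H3K27ac it was highest on chromosomes 5 and 8, at 29.9% ± 0.858 and 29.3% ± 3.67 at day 0 and 28.6% ± 0.607 and 30.8% ± 0.653 at day 3. The neighbours in this order at day 0, chromosomes 5 and 8, differed by less than their spread. It was lowest on chromosome 16 at both days (12.5% ± 0.333 and 18.9% ± 0.0534), though at day 3 the next, chromosome X with 19.03% and 20.4% in the replicates, was less apart than its spread. For ARID1A it was highest on chromosomes 13 and 8 (7.21% ± 0.103 and 7.03% ± 0.487, less apart than their spread) and lowest on X and 16 (1.92% ± 0.0137 and 2.60% ± 0.108).

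Loops with 4 or more PETs were spread less evenly. At day 0 chromosome 6 held 16.5% ± 0.391 of them while holding 5.53% ± 0.0199 of the possible pairs. Chromosomes 5 and 20 held 10.6% ± 1.96 and 10.1% ± 0.332, against 3.23% ± 0.0162 and 3.37% ± 0.00101 of the pairs. At day 3 chromosome 6 held 8.87% ± 0.0238, against 5.55% ± 0.0114 of the pairs. Chromosome 1 held 8.72% ± 0.255, which was below its 12.4% ± 0.0447 of the pairs. For ARID1A chromosome 2 held 22.3% ± 2.56, against 7.03% ± 0.0173 of the possible pairs. Chromosome 8 held 12.9% ± 5.28 and chromosome 5 held 12.7% ± 1.59, against 2.46% ± 0.0251 and 3.97% ± 0.0167 of the pairs. Chromosome 6 thus came first in both H3K27ac groups, though at day 3 it differed from chromosome 1 by less than the spread, and chromosome 2 came first for ARID1A.

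**Figure D4:**
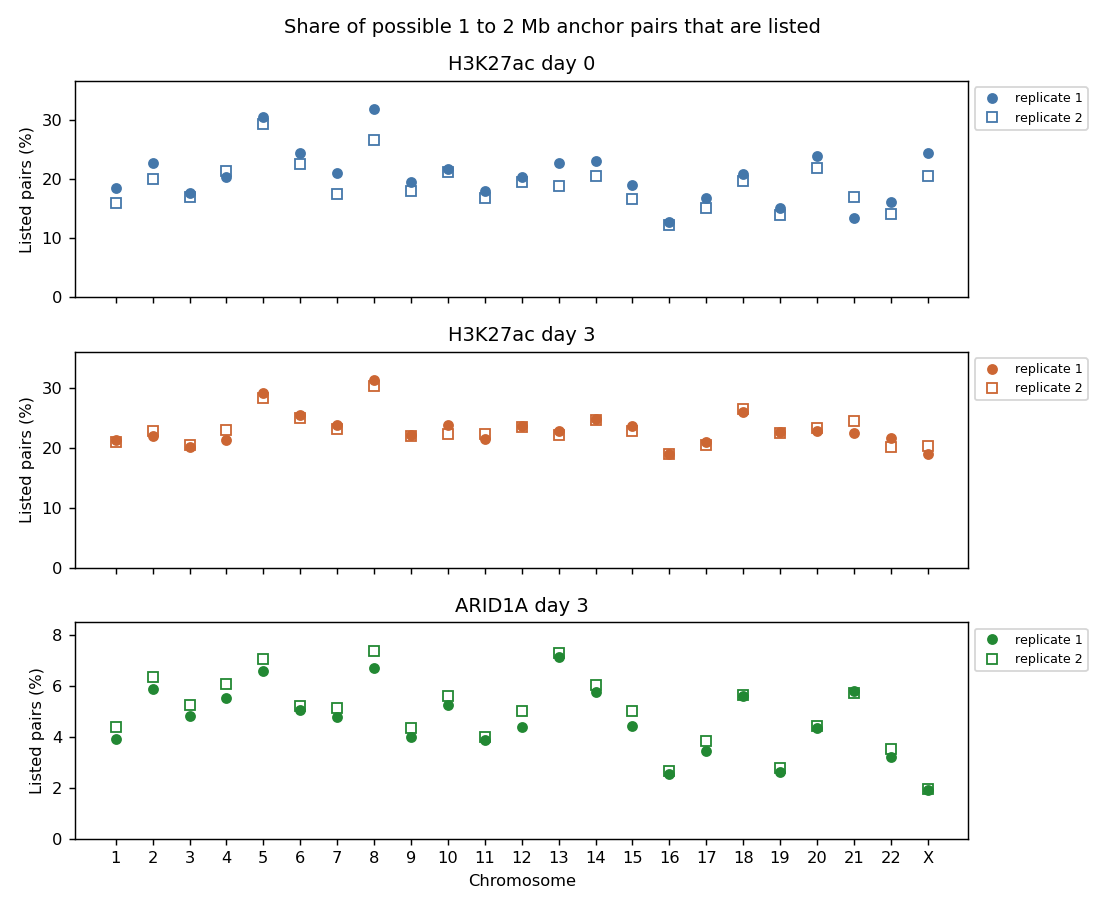
Percentage of the possible 1 to 2 Mb anchor pairs that are listed (vertical axis, 1 panel and scale per group) on each chromosome (horizontal axis), 1 point per library. Chromosomes 5 and 8 stand highest in both H3K27ac panels and chromosome 16 is at 18.9% ± 0.0534 in the day 3 panel, close to X; the ARID1A panel has its own scale, with all points at or below 7.37%.

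The band pairs with the largest shares of megabase PETs differed between groups, and no pair held more than 6.02% in any library. Contacts between 6p22.2 and 6p22.1, where the large cluster of replication histone genes lies, held 768 and 652 PETs at day 0, 851 and 759 at day 3 and 91 and 85 in ARID1A. That was 6.02% and 5.83% of all megabase PETs at day 0, 1.53% and 1.38% at day 3, and 0.533% and 0.456% for ARID1A. Contacts within 8q24.21, the band of MYC and the long non-coding RNA PVT1, held 209 and 168 PETs at day 0, 1199 and 1195 at day 3 and 289 and 334 in ARID1A. Their share was highest at day 3 (2.16% and 2.17%), and was 1.64% and 1.50% at day 0 and 1.69% and 1.79% for ARID1A. No group's shares overlapped another's in these pairs, whereas the PETs of the 6p22.2 to 6p22.1 pair overlapped between the days. Anchor lists differ between the groups there.

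Several further pairs had their largest share at day 0. Contacts within 7p15.2, which holds the HOXA cluster of body-patterning genes, took 2.47% and 2.31% at day 0, 1.09% and 1.14% at day 3 and 0.474% and 0.510% for ARID1A. Contacts within 20q13.2, the band of the zinc finger gene ZNF217, took 2.43% and 2.40%, 1.04% and 0.968%, and 0.316% and 0.317%. Contacts within 15q14, the band of the homeobox gene MEIS2, took 1.79% and 1.74%, 1.07% and 0.984%, and 0.866% and 0.827%. The pair 2q32.1 to 2q32.2, the latter the band of the fibrillar collagen genes COL3A1 and COL5A2, went the other way in its share. It took 0.227% and 0.260% at day 0, 0.405% and 0.369% at day 3 and 1.18% and 1.41% for ARID1A. In PETs it held 29 in each day 0 library, 225 and 203 at day 3 and 201 and 262 in ARID1A. In ARID1A, whose depth was below that of day 3 H3K27ac, it had 7 and 14 loops with 4 or more PETs, against 13 and 15 at day 3.

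**Figure D5:**
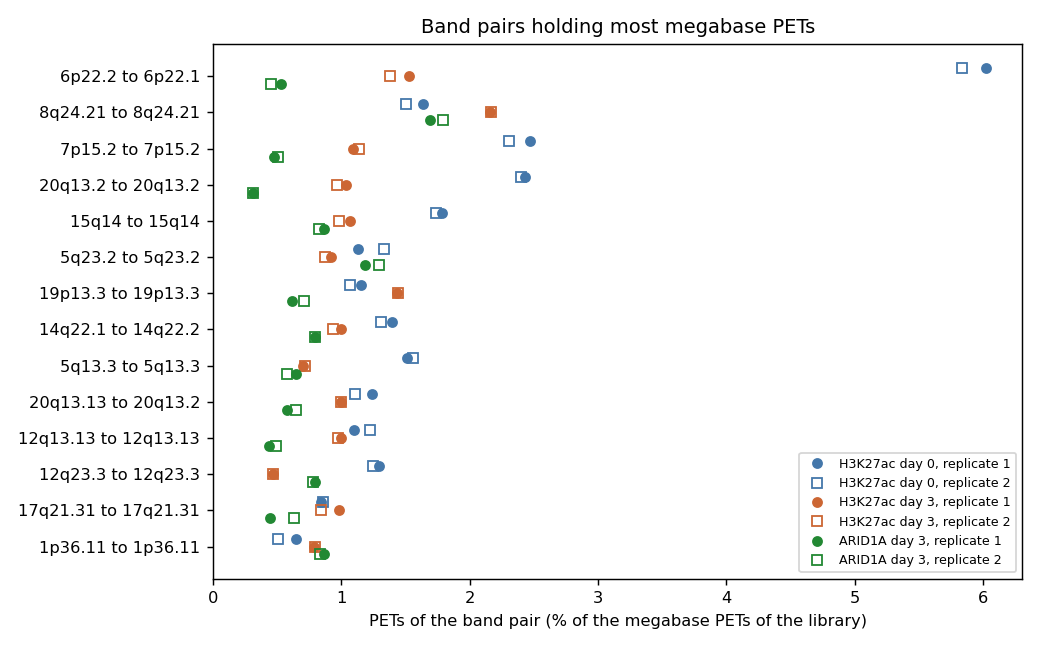
Percentage of a library's megabase PETs (horizontal axis) held by each of the band pairs with the largest mean share (vertical axis), 1 point per library. The 6p22.2 to 6p22.1 pair stands apart in the day 0 libraries, at 6.02% and 5.83%.

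The megabase loops with most PETs in the weaker replicate show which regions lead each group. At day 0 the first was chr6:26182170-26210151 to chr6:27773799-27808886 (6p22.2 to 6p22.1, span 1.60 Mb), with 89 and 84 PETs. A loop from chr6:26019666-26059153 to the same 6p22.1 anchor had 93 and 71, and one from there to chr6:27097374-27119217 had 47 and 39. The remaining loops in the first 5 were chr5:91883874-91909086 to chr5:92910769-92947564 (5q14.3 to 5q15, 70 and 55 PETs), the latter the band of the nuclear receptor gene NR2F1, and chr7:25885553-25910107 to chr7:27186269-27224837 (7p15.2, 58 and 49 PETs). So 3 of the 5 strongest day 0 loops lay in the histone gene bands.

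At day 3 the first 2 H3K27ac loops shared an anchor in 8q24.21, chr8:129856539-129899318. It was joined to chr8:128805645-128847952 by 104 and 100 PETs and to chr8:128743534-128758946 by 94 and 100. Next came chr6:26260407-26288830 to chr6:27772287-27811500 (98 and 85 PETs), chr7:25881214-25912056 to chr7:27198994-27229100 (77 and 80) and chr15:35781883-35816575 to chr15:37370265-37407858 in 15q14 (89 and 76). A 6p22.2 to 6p22.1 loop and a 7p15.2 loop thus stood among the first 5 at both days. The 6p22.2 anchor of day 3 does not overlap those of the leading day 0 loops.

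The leading ARID1A loops held far fewer PETs. The same 8q24.21 region was first again, with chr8:129856539-129879158 joined to chr8:128804312-128851784 by 9 and 12 PETs and to chr8:128741106-128758317 by 11 and 8. A loop from 10p12.31 to 10p12.2 (chr10:21561850-21590399 to chr10:22695492-22734667), the latter the band of the Polycomb gene BMI1, had 7 and 6. Those of 5q23.2 (chr5:124253869-124273410 to chr5:125812167-125833982) and 15q14 (chr15:35578844-35590305 to chr15:37390212-37407858) had 5 and 6, and 5 and 5.

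A few anchors took part in many megabase loops. The 1% of anchors with most megabase PETs held 19.7% and 19.0% of megabase PET ends at day 0, 14.3% and 14.2% at day 3, and 11.6% in both ARID1A libraries. The same measure over shorter loops gave 11.3% and 11.0%, 12.1% and 12.2%, and 8.70% and 8.73%. These top anchors had median widths of 21537 to 27799 bp in the 6 libraries, against 5594 to 5712 bp for all anchors, so the anchors that recurred most were also wide. The number of megabase partners per anchor was correlated with other traits over the anchors of a library, which are not independent. Its Spearman correlation with the number of possible partners was 0.44 to 0.72, and with width 0.21 to 0.38. The part of width in these values was not tested.

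At day 0 the anchor with most megabase partners was chr6:27773799-27808886 in 6p22.1. It was joined to 28 and 29 of 32 possible partners by 419 and 367 PETs, with 19 and 15 partners at 4 or more PETs. A pair of anchors in 20q13.2 (chr20:50544401-50557432 and chr20:50569978-50581805) followed, with 24 and 25 of 39 and 24 and 26 of 40 partners. The other 2 were chr11:65237243-65277746 in 11q13.1, the band of the nuclear RNA genes NEAT1 and MALAT1 (26 and 23 of 36 partners), and chr1:154924677-154952722 in 1q21.3 (23 and 22 of 39). The 6p22.1 anchor differed from the other 4 in PETs, since these held 45 to 73 in a library. It was also joined to a larger part of its possible partners, and the other 4 had 3 to 7 partners at 4 or more PETs.

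At day 3 the first H3K27ac anchor was chr9:129260973-129301878 in 9q33.3, the band of the homeobox gene LMX1B, with 49 and 47 of 54 possible partners and 205 and 177 PETs. The 11q13.1 anchor (chr11:65235995-65279149) was second, with 50 and 43 of 62. A pair in 1p36.23 (chr1:8128347-8164182 and chr1:8062185-8102112) had 39 and 46 of 62 and 39 and 39 of 59, and chr9:132218056-132267762 in 9q34.11 had 38 and 40 of 47. For ARID1A the first was chr2:40537947-40652488 in 2p22.1, 114541 bp wide, with 31 of 54 partners in both libraries. It was followed by anchors in 2q32.2 (chr2:190235707-190265866, 21 and 20 of 43), 8q24.21 (chr8:128804312-128851784, 18 and 21 of 35), 5q13.3 (chr5:75891969-75930802, 19 and 18 of 56) and 2p21 (chr2:42336270-42376602, 17 and 22 of 47). Only 11q13.1 stood among the first 5 of more than 1 group, and 3 of the 5 ARID1A anchors were on chromosome 2.

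To follow a loop across groups, overlapping anchors were merged into consensus anchors, which gave 74254 megabase consensus loops. Of these, 2866 were listed in both day 0 libraries, 14445 in both day 3 H3K27ac libraries and 2552 in both ARID1A libraries. Both anchors of the day 0 loops had a day 3 H3K27ac counterpart in 88.6%, and 81.4% were listed in at least 1 day 3 library. Of the day 3 loops 48.6% had both anchors at day 0 and 29.3% were listed there. Of the ARID1A loops 56.8% had both anchors in day 3 H3K27ac, and 45.9% were listed there. Among loops with both anchors in the other group, the listed shares were 91.9%, 60.3% and 80.8% in the same order. Day 3 H3K27ac libraries were deeper and had more anchors than day 0 ones, so the shares of the days are unlike. Shorter loops were not compared in this way. In all, 238 were listed in all 6 libraries, 17 of them in 5q23.2, 10 in 8q24.21 and 8 in 20q13.2. These band counts were not set against the number of consensus loops in each band.

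How often strong megabase loops rested on anchors shared between groups, compared with strong shorter loops, differed by group and was not tested. In the day 3 H3K27ac libraries 69.5% and 70.2% of the megabase consensus loops with 4 or more PETs had an H3K27ac anchor at both ends at day 0, against 39.5% and 39.2% of shorter loops with 4 or more PETs. In the ARID1A libraries 81.0% and 82.4% of strong megabase loops had day 3 H3K27ac anchors at both ends, against 46.5% and 45.9% of strong shorter ones. For megabase loops of any PET count the shares were lower, at 36.6% and 36.8% and at 39.6% and 39.1%. In the day 0 libraries the shares with day 3 H3K27ac anchors at both ends were close, at 83.2% and 87.5% of strong megabase loops and 85.6% and 85.1% of strong shorter ones. With ARID1A anchors at both ends they were 71.8% and 75.4%, and 73.1% and 73.2%. Of the 29 loops with 4 or more PETs in both ARID1A libraries, 27 were listed in both day 3 H3K27ac libraries.

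The loops with most PETs in the lowest of all 6 libraries give the contacts held in common. The first was the 8q24.21 loop from chr8:128804312-128851784 to chr8:129856539-129899318, with 34 and 28 PETs at day 0, 104 and 100 at day 3 and 16 and 15 in ARID1A. As CPM, counts per 1000000 consensus PETs of the library, these were 129 ± 2.26, 114 ± 7.66 and 35.7 ± 3.43 (SD, n = 2). Its day 3 to day 0 difference did not pass edgeR's quasi-likelihood test with Benjamini-Hochberg adjustment (log2 fold change 0.39 ± 0.20 SE, adjusted p = 0.0816), and its sign differs from that of the CPM means, which are scaled by library totals. The second, chr8:128741106-128758946 to the same anchor, had 48 and 47, 94 and 100, and 13 and 11 PETs. A loop from 10p12.31 to 10p12.2 (chr10:21561850-21611627 to chr10:22695492-22739725) had 16 and 12, 25 and 36, and 9 and 9 PETs. Its CPM was 58.0 ± 4.85, 33.9 ± 7.35 and 20.7 ± 1.05, and neither comparison passed the test (adjusted p = 0.615 for day 3 against day 0 and 0.843 for ARID1A against H3K27ac). A 5q34 loop (chr5:166472091-166501018 to chr5:167510228-167542773) had 12 and 12, 27 and 39, and 6 and 7 PETs, and also passed neither (adjusted p = 0.754 and 0.145).

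Day 3 H3K27ac loops were then tested against day 0 across all 37920 consensus loops with 4 or more PETs in at least 2 of the 4 libraries, of which 1371 were megabase loops. Of the megabase loops 416 were called higher and 83 lower at an adjusted p under 0.05 (edgeR). Over all loops tested, 58.2% were called higher and 8.18% lower (66.4% in either direction), so the megabase shares of 30.3% and 6.05% lay below both. Most of these calls came from anchors that one group lacks: 290 of the 416 had no day 0 anchor at one end or both, and 39 of the 83 no day 3 anchor, so that no fold is given for them. Most loops also passed the count minimum through day 3 alone: 1224 of the 1371 had 4 or more PETs in both day 3 libraries and 230 in both day 0 libraries, so the direction of the calls is no evidence of a general rise. The number called was 57 without day 3 replicate 1, 53 without day 3 replicate 2, 37 without day 0 replicate 1 and 179 without day 0 replicate 2. It was 96 with the replicate number as a block, 81 with DESeq2 and 68 at equal PET totals. The share called over all loops in each of these settings is not given here. The counts therefore do not set megabase loops against other loops.

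Among the 1042 megabase loops with both anchors in both groups, 126 were called higher and 44 lower, or 12.1% and 4.22%, where all 16642 such loops gave 13% and 10.5%. The share called higher was thus near the background and the share called lower below it. The median log2 fold change was 0.36 for these megabase loops and 0.05 for all such loops. Refitted on loops of this kind alone, 85 megabase loops were called, 55 higher and 30 lower. Scaling by library totals in place of TMM moved the median of all such loops by -0.39 on the log2 scale and turned the megabase split to 78 higher and 93 lower. The direction of the balance therefore depends on the scaling. The shares of all such loops called in the refit and with library totals are not given here. Called width moved with the calls. The anchors of all 126 higher loops were wider in sum at day 3, as were those of 26 of the 44 lower loops and of 973 (93.4%) of the 1042. Where both anchors differed by less than 1.5 times in width (407 loops, a limit set after the data were seen), 7 were called higher and 27 lower, or 1.72% and 6.63%, where 19.2% of the 6595 such loops of all spans were called in either direction. The part of width in the calls was not tested further.

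Of the 126 loops called higher, 10 lay within 8q24.21, 6 each within 14q24.1 and 17q21.31, and 6 between 20q13.13 and 20q13.2. The day 3 H3K27ac libraries listed 71 and 69, 23 and 26, 25 and 19, and 35 and 34 megabase loops with 4 or more PETs there. Whether the share called in these bands exceeded that of all megabase loops tested was not examined. Of the 44 called lower, 2 also lay within 8q24.21, with log2 fold changes of -2.92 and -2.10. The first higher loop by p joined chr8:128857022-128892599 to chr8:129856539-129899318. It had 3 and 5 PETs at day 0 against 42 and 55 at day 3, and it rose by 2.25 ± 0.39 on the log2 scale (edgeR, adjusted p = 8.05e-07). The anchor at chr8:128857022-128892599 was 4612 bp wide at day 0 and 31720 bp at day 3. From the same anchor, a loop ran to chr8:130686670-130702708, an anchor 7829 bp wide at day 0 and 16038 bp at day 3. This loop had 0 PETs in both day 0 libraries and 19 and 22 at day 3. Against a floor of 3 PETs over the day 0 group it was at least 3.66-fold higher on CPM. A loop from 3q22.1 to 3q22.2 (chr3:133164424-133201301 to chr3:134169303-134216316) had 1 PET in each day 0 library and 27 and 24 at day 3, a CPM ratio of 6.84 with a 95% counting interval of 1.80 to 58.0; its first anchor was 3429 bp wide at day 0 and 31516 bp at day 3. The anchors of a 2p22.1 loop (chr2:39615309-39670367 to chr2:40652895-40713575) were 23214 and 27059 bp wide at day 0 and 42363 and 52020 bp at day 3. This loop had 3 and 1 PETs at day 0 against 21 and 22 at day 3 (edgeR, log2 2.06 ± 0.62, adjusted p = 0.00319). Its direction turned, to -0.42, when anchors were extended by 2500 bp before merging, and it did not pass with DESeq2 or without day 0 replicate 2. Another pair of 8q24.21 loops was chr8:127554280-127606824 to chr8:128857022-128892599 and chr8:127612115-127644930 to chr8:128804312-128851784. The anchors of the latter loop were 5120 and 22420 bp wide at day 0 and 29007 and 42307 bp at day 3. Both loops had 0 PETs at day 0 and 14 and 11, and 13 and 9, at day 3. They were at least 2.23-fold and at least 1.97-fold higher against the same floor, and neither passed without day 0 replicate 1.

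Of the 44 loops called lower, 6 lay within 7p15.2 and 4 within 5q13.3, and the number tested in these bands was not examined. The 5q14.3 to 5q15 loop (chr5:91877753-91913327 to chr5:92908611-92949339) had 83 and 62 PETs at day 0 against 82 and 104 at day 3 in libraries more than 3 times as deep. In CPM, which is scaled by library totals, it was 300.4 ± 26.0 at day 0 and 104 ± 13.3 at day 3. With TMM scaling it fell by 0.97 ± 0.17 on the log2 scale (edgeR, adjusted p = 6.67e-08), a smaller fall than in CPM. Its anchors were 30827 and 36795 bp wide at day 0 and 35068 and 38007 bp at day 3, so this fall came with slightly wider anchors. A 7p15.2 loop (chr7:25914461-25936250 to chr7:27186269-27233068) had 41 and 34 PETs at day 0 against 45 and 44 at day 3, and fell by 1.08 ± 0.22 (adjusted p = 2.06e-05). At equal PET totals its log2 fold change was -0.61 and did not pass.

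Smaller loops fell too, and each of those named below had a narrower and a wider anchor at day 3 than at day 0. The narrower anchor went from 13031 bp at day 0 to 9883 bp at day 3 in the 20q13.2 loop. In the 1q21.3 loop it went from 31326 to 21828 bp, and in the 14q24.3 loop from 49960 to 29575 bp. A 5q13.3 loop (chr5:74296093-74338647 to chr5:75891969-75941228) had 8 and 9 PETs at day 0 against 0 and 2 at day 3, a CPM ratio of day 0 to day 3 of 31.7 with a 95% counting interval of 7.53 to 283; its first anchor was 31092 bp wide at day 0 and 5029 bp at day 3. A 20q13.2 loop (chr20:50543104-50557432 to chr20:52343804-52395921) had 18 and 14 PETs at day 0 against 8 and 16 at day 3 (log2 -1.73 ± 0.38); it did not pass with no filter on low counts. A 1q21.3 loop (chr1:153496563-153553136 to chr1:154924677-154957303), in the band of the epidermal differentiation and S100 gene cluster, had 11 and 13 against 5 and 7 (log2 -2.29 ± 0.52). A 14q24.3 loop (chr14:75695023-75772369 to chr14:77486082-77521886), in the band of the AP-1 gene FOS, had 10 and 11 against 4 and 4 (log2 -2.67 ± 0.62).

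The largest differences by p were set by anchor calling. The strongest day 0 loops of 6p22.2 could not be compared, because no day 3 H3K27ac anchor was called at chr6:26019666-26059153 or at chr6:26180088-26239704. The consensus loop from the latter to chr6:27771845-27811500 had 136 and 127 PETs at day 0 and is unlisted at day 3. A neighbouring loop with anchors at both days, chr6:26260407-26288830 to chr6:27771845-27811500, had 39 and 34 PETs at day 0 against 98 and 85 at day 3, with an adjusted p of 0.997. In the other direction, a 5q15 loop (chr5:92908611-92949339 to chr5:94233984-94247907) with 34 and 23 PETs at day 3 lacked a day 0 anchor at its second end.

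ARID1A loops were tested against H3K27ac at day 3 in the same way, over 47562 loops of which 1249 were megabase loops. Of these 11 were called higher for ARID1A and 591 lower, or 0.881% and 47.3%, where all loops tested gave 29.6% and 33.1%, 62.7% in either direction (edgeR). Here 2 of the 11 and 227 of the 591 lacked an anchor in one group. The count minimum was reached in both H3K27ac libraries by 1224 of the 1249 and in both ARID1A libraries by 29, so nearly all entered through H3K27ac, which was also the deeper group. The number called was 61 without either ARID1A replicate, 19 without H3K27ac day 3 replicate 1 and 20 without H3K27ac day 3 replicate 2. It was 147 with the replicate number as a block, 168 with DESeq2 and 40 at equal PET totals, where 93 megabase loops could be tested. Here too the share called over all loops in each setting is not given, so the counts do not set megabase loops against other loops. Among the 994 with both anchors in both groups, 9 were higher and 364 lower (0.905% and 36.6%, where all such loops gave 15.9% and 22.8%). The median log2 fold change was -1.80 for these and -0.48 for all such loops. Refitted on loops of this kind alone, 6 were higher and 243 lower. Library totals moved the median of all such loops by -0.18 and gave 5 higher and 422 lower. The shares of all such loops called in the refit and with library totals are not given here.

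Anchor width moved with these calls as well. All 9 higher loops had wider anchors in sum for ARID1A, as did 136 of the 364 lower loops and 550 (55.3%) of the 994. Where both anchors were within 1.5 times of each other in width (603 loops), 5 were higher and 195 lower, or 0.829% and 32.3%, where 30.4% of the 11996 such loops of all spans were called in either direction. Since nearly all megabase loops entered the test through H3K27ac, the balance of directions is no evidence of a general difference.

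Chromosome 2 held 22.3% ± 2.56 of the ARID1A megabase loops with 4 or more PETs, and its share of the loops tested was not examined. Of the 9 loops higher for ARID1A, 6 lay on chromosome 2, and those named had few PETs. The first by p, in 2p22.1 (chr2:39505198-39538457 to chr2:40536881-40652488), had 4 and 6 PETs for ARID1A and 1 in each day 3 H3K27ac library, a CPM ratio of 10.3 with a 95% counting interval of 2.19 to 96.5; its second anchor was 114541 bp wide for ARID1A and 42178 bp for H3K27ac. Of the 9, 3 joined 2q32.1 to 2q32.2. One of these (chr2:188828408-188861900 to chr2:189864165-189891684) had a second anchor 27519 bp wide for ARID1A and 4453 bp for H3K27ac. This loop had 4 and 5 PETs for ARID1A and 3 and 2 for H3K27ac (edgeR, log2 2.43 ± 0.71, adjusted p = 0.00371). It did not pass with DESeq2, with no filter on low counts or without H3K27ac day 3 replicate 2. A 2p16.1 loop (chr2:57920809-57939970 to chr2:58980900-59019990) had anchors of 19161 and 27937 bp for ARID1A and 6374 and 31603 bp for H3K27ac. This loop had 4 and 4 PETs against 2 and 2 (edgeR, log2 2.56 ± 0.63, adjusted p = 0.00461), and it failed in those settings, with 2 or more PETs as the minimum and with the replicate block.

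Of the 364 loops lower for ARID1A, 17 joined 6p22.2 to 6p22.1, 17 lay within 8q24.21 and 12 within 20q13.2. In the day 3 H3K27ac libraries these listed 49 and 41, 71 and 69, and 50 and 46 megabase loops with 4 or more PETs. Whether their share called exceeded that of all megabase loops tested was not examined. The first of the 364 by p was the histone band loop chr6:26260407-26288830 to chr6:27771845-27811500, with 98 and 85 PETs for H3K27ac and 2 and 1 for ARID1A. Its CPM ratio of H3K27ac to ARID1A was 29.7 with a 95% counting interval of 9.99 to 145. A loop beside it (chr6:26241679-26257550 to the same anchor) had 47 and 36 against 0 and 0, at least 13.4-fold lower for ARID1A on CPM against a floor of 3 PETs over the group. Neither passed the test at equal PET totals. The ARID1A anchors at these 3 places were 13742, 13664 and 4638 bp wide, and those of H3K27ac 28423, 39213 and 14174 bp. The 5q14.3 to 5q15 loop had 82 and 104 PETs against 8 and 8, with anchors of 35068 and 38007 bp for H3K27ac and 35059 and 31079 bp for ARID1A, and it was lower by 1.86 ± 0.31 on the log2 scale (coded ARID1A minus H3K27ac, -1.86; edgeR, adjusted p = 1.37e-08). The 8q24.21 loop that came first over all 6 libraries was also lower (-1.05 ± 0.26, adjusted p = 0.000132), with 104 and 100 PETs against 16 and 15. The 7p15.2 and 15q14 loops that lead H3K27ac at day 3 had no ARID1A anchor at one end and could not be compared.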

How the data were processed

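The loop files of 6 HiChIP libraries were used. Per the labels' protocols they were sequenced as paired reads of 150 bp; Bowtie2, HiC-Pro and hg19 are named in the submitters' processing notes, while loop caller, anchor calling and settings were not given in the sources used here. The authors deposited, for each library, one list that gives, per loop, the anchor coordinates, a whole-number count of PETs (raw, not normalised) and a value between 0 and 1. The deposited column carries no name, and it may be a p-value or an adjusted one; it served only as an alternative threshold of 0.01. Among megabase loops it was at most 0.01 exactly where the count was 2 or more. Coordinates stand as deposited, and whether they count from 0 or 1 is unstated. Groups and replicate numbers come from the sample titles.

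Spans were measured between anchor midpoints with Python 3.11.15, pandas 2.3.3, numpy 2.4.6 and scipy 1.17.1. Possible pairs are all pairs of a library's anchors at 1 to 2 Mb. Per-library values at equal PET totals are expectations under binomial thinning to 253502 PETs. For edgeR results at equal PET totals, consensus counts were instead thinned by a single random binomial draw to the smallest consensus PET total. Consensus anchors merged anchors overlapping by 1 bp or more (30001 anchors, 348566 loops). Consensus counts were tested in R 4.3.3 with edgeR 4.0.16 (quasi-likelihood, TMM, 4 libraries per fit, 4 or more PETs in at least 2 libraries, Benjamini-Hochberg over all loops); the step was tested on simulated data. DESeq2 1.42.0, library totals, other filters, thresholds and anchor merging were alternatives. CPM uses each library's consensus PETs. Counting intervals and floors cover counting error only, and PETs carry no molecular identifiers here. Bands come from circlize 0.4.16; figures from matplotlib 3.10.9. Chromosome Y was left out of counts by chromosome.

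Named items follow a rule: per group, the 5 loops with most PETs in the lower replicate and the 5 anchors with most megabase partners; per test and direction, up to 6 called loops with anchors in both groups and 3 without, by p; and up to 6 loops of all 6 libraries. Some are described only by group or band. Members, rule and lists were chosen with earlier results of these data known. Same-numbered libraries did not deviate together (correlations 0.00185 and 0.00388), so the numbers were not taken as pairing.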

Additional observations from a re-analysis of the deposited data

How the results depend on the processing

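Among the per-library measures, thinning to equal PET totals reversed the day 3 to day 0 ratio of the share of loops (0.846), of loops with 4 or more PETs (0.653), of the listed share of possible pairs (0.457) and of the share listed in both replicates (0.653); in the other alternatives run these measures kept their direction, and those of ARID1A against H3K27ac kept it in all. Leaving out a library was not possible for the share listed in both replicates. The counts of called megabase loops depended on the processing. The share called over all loops in each setting is not given beside these counts, which therefore do not set megabase loops against other loops. For day 3 against day 0 (499 called) they were 160 at 1.5 Mb, 81 with DESeq2, 238 with no filter on low counts, 983 with 2 or more PETs, 85 with anchors in both groups only, 34 with anchors of similar width, 68 at equal PET totals and 37 to 179 with a library left out. For ARID1A against H3K27ac (602 called) the same settings in this order gave 192, 168, 144, 657, 249, 200, 40 and 19 to 61. With the replicate number as a block they were 96 and 147; the numbers do not pair the libraries, so calls lost there are not described as weaker effects. The 2p22.1 loop higher at day 3 had a log2 fold change of -0.42 with extended anchors. The other called loops with anchors in both groups that are named kept their direction in the alternatives in which they were tested; the loops named for their PETs in all 6 libraries were not run through the alternatives. The cause of these changes was not tested. Low PET counts limit what single megabase loops can show, above all for ARID1A.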

Other observations

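Band pairs differed in how many of their listed megabase loops were strong, as in these examples, chosen after their values were seen. Contacts within 19p13.3, a gene-dense band, numbered 572 and 558 loops in the day 3 H3K27ac libraries, but only 16 and 22 of them had 4 or more PETs. Contacts within 8q24.21 numbered 299 and 286, of which 71 and 69 had 4 or more. At day 0, 19p13.3 had 129 and 103 megabase loops and none with 4 or more PETs in either library, while 20q13.2 had 115 and 107 with 27 and 25 at 4 or more. In the ARID1A libraries 19p13.3 had 104 and 123 loops, again with none at 4 or more, and 8q24.21 had 193 and 239 with 10 and 7.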
